A study of Homo sapiens with 22 samples.

Results

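The genes described here encode the chains of the fibrillar collagens of types I, III and V and of the microfibrillar collagen of type VI: COL1A1, COL1A2, COL3A1, COL5A1, COL5A2, COL6A1, COL6A2 and COL6A3. They are 8 of 19974 protein-coding genes on chromosomes 1 to 22 and X. For each gene, every region of 4 deposited peak lists was taken that overlapped the RefSeq gene body plus 50 kb on each side (the window). These windows held 549 distinct regions of the 532810 in the lists: 202 of the HFFc6 ATAC list, 129 of the H1 ATAC list, 151 of the HFFc6 CTCF list and 67 of a CTCF list named for human embryonic stem cells (hESC). A region was called shared where a region of the other list of the same kind overlapped it by at least 1 bp, and otherwise HFFc6-only, H1-only or hESC-named-only. The series held 22 libraries in 6 groups from 2 human cell lines, for which the labels give no treatment. HFFc6 is the subclone c6 of foreskin fibroblasts immortalised with telomerase (HFF-hTERT), so it stands for 1 clone of a cultured line, and H1 is a line of embryonic stem cells. ATAC-seq marks accessible chromatin by where the transposase Tn5 inserts, and covered 8 HFFc6 libraries and 2 H1 libraries. Cut&Tag brings the same enzyme to a protein through an antibody, and covered CTCF, a zinc-finger protein that helps to anchor chromatin loops, in 2 HFFc6 libraries.

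Each list was a single call for its group, so no value per library, no error between replicates and no test between the lines could be had, and every difference below is a difference between lists. Read depth is unknown. A region missing from a list can be closed, or open in too few cells to pass the caller's limit, and these cannot be told apart. No sample label used here describes the hESC-named CTCF list, and neither its assay nor its libraries could be stated. Titles of the Cut&Tag libraries name HFF1, while HFFc6 is their labelled line and was followed. The meaning of the R and T numbers on the HFFc6 ATAC titles is not stated, so some of the 8 libraries may repeat the same material. As a check of the labels, a region within 1 kb of the start was found in both ATAC lists for 4 of 5 fibroblast genes. It was found in the HFFc6 list alone for 0 of them, so these genes do not tell the lines apart. Of 6 stem cell genes, 3 had such a region in the HFFc6 list and 5 in the H1 list, with 2 in the H1 list alone.

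Collagens are secreted proteins whose chains wind into a triple helix. Type I, made of the products of COL1A1 and COL1A2, is the main fibril former of skin, tendon and bone, and type III, from COL3A1 alone, is co-assembled with it in skin and vessels. Type V, from COL5A1 and COL5A2, starts fibrils and limits their diameter. Type VI, from COL6A1, COL6A2 and COL6A3, forms beaded filaments around cells. Dermal fibroblasts are a main source of all of them.

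Promoters of COL5A1, COL6A2 and COL6A3 were in the RefSeq promoter table used here, and COL1A1, COL1A2, COL3A1, COL5A2 and COL6A1 have no entry there. These 3 sequences are shown because H1 chromatin differed among them: the starts of COL5A1 and COL6A2 carried an H1 ATAC region and that of COL6A3 carried none. Each runs 5′ to 3′ from 250 bases before the start to 50 after it in GRCh38.p14. Capitals mark every match on either strand to 6 motifs: the CCAAT box, the TATA box spelled TATAAA, the GC box spelled GGGCGG, the AP-1 motif TGANTCA, the SMAD motif CAGAC, and a short CTCF core. The core was searched as AGGGGGC and also in the spellings AGGTGGC with T in the middle, AGAGGGC with A before it, and AGATGGC with both. The COL5A1 sequence lies at chr9:134641553-134641852 on the plus strand, the COL6A2 sequence at chr21:46097862-46098161 on the plus strand, and the COL6A3 sequence at chr2:237414115-237414414 on the minus strand.
COL5A1: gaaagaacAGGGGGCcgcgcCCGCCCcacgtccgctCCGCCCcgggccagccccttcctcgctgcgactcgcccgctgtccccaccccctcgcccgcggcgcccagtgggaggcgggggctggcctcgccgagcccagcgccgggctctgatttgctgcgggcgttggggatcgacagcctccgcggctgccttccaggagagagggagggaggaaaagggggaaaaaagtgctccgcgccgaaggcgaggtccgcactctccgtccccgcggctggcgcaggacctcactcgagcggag
COL6A2: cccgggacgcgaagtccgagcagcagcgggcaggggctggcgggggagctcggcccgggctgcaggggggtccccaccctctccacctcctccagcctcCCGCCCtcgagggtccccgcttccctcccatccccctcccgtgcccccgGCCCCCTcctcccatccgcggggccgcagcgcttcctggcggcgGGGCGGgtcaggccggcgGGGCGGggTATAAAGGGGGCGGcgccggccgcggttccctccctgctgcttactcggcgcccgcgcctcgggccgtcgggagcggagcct
COL6A3: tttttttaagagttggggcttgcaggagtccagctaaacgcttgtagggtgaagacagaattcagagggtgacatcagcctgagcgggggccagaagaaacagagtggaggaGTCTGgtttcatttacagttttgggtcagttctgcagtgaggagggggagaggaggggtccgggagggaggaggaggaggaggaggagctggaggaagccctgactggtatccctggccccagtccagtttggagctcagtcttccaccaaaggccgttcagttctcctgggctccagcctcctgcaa

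The COL5A1 and COL6A2 promoters were rich in G and C, at 74% and 79.3%, against 56.3% for COL6A3 and a median of 58.7% over all 35116 promoters of the table. Their ratios of observed to expected CpG were 0.877 and 0.767, and that of COL6A3 was 0.183, below the median of 0.579. COL5A1 held 2 GC boxes and 1 CTCF core. COL6A2 held 4 GC boxes, 2 CTCF cores and a TATA box at position -32 from the start, where the TATA box, a CTCF core and a GC box overlap in one run of capitals. COL6A3 held a single match, to CAGAC. The motif GGGCGG was found in 45.0% of all promoters of the same length, the CTCF core in 30.5%, CAGAC in 45.3%, TATAAA in 11.5%, CCAAT in 34.6% and TGANTCA in 7.71%. These matches are descriptions of letters, and none was tested as a binding site.

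Every one of the 8 genes was counted as having open chromatin at its start, or at an end taken for it, in fibroblasts. An HFFc6 ATAC region lay within 1 kb of the start at 8 of 8 genes, where the share over all protein-coding genes was 74.7%. The start was taken from the promoter table where it has the gene and otherwise as either end of the body, since the gene table used here gives no strand. An H1 ATAC region lay there at 7 of 8 genes (78.5% of all genes), and regions of both lists at the same 7 (70.1%). COL5A2 counts in both ATAC lists only through an end that coincides with the end of WDR75. The share of all genes with an HFFc6 region was 76.0% where a start was tabulated and 69.4% where either end was used.

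COL6A3 was the exception in H1. Its start lay in an HFFc6-only ATAC region of 3195 bp (chr2:237411390-237414584) with a fold enrichment, the peak caller's ratio of signal to its background, of 7.07 and a −log10 q of 311.6. Only 138 of the 155746 regions of that list were as wide or wider. The H1 region nearest on the gene's side of the start was H1-only, with its summit 3951 bp inside the body (−log10 q 4.6), where both CTCF lists had a region as well. The HFFc6 CTCF list had 2 HFFc6-only regions within 1 kb of the start, with fold enrichments of 1.97 and 3.81, and the hESC-named list had none.

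Among the genes with tabulated starts, COL5A1 had an HFFc6 region of 956 bp (fold enrichment 7.62) and an H1 region of 841 bp (6.78) over the start, at percentiles 60.4 and 59.6 of their own lists. COL6A2 had an HFFc6 region of 2213 bp (8.77), and H1 had 3 separate regions of 206, 606 and 205 bp inside or partly inside the same stretch. The HFFc6 CTCF region at the COL6A2 start, 2641 bp wide, was among the 104 widest of 82297 in that list. One broad HFFc6 region facing several shorter H1 regions was also seen at COL1A2 and COL6A1.

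At the low-coordinate end of COL1A2 the HFFc6 ATAC region spanned 2266 bp with a fold enrichment of 10.82 and a −log10 q of 1245.4. H1 had 2 regions there, with fold enrichments of 4.28 and 7.74. At the high-coordinate end of COL1A1, which is the side of its start in textbook annotation, the HFFc6 region reached a fold enrichment of 5.24 and the H1 region 8.08. CTCF was strong at that end of COL1A1 in both CTCF lists, with a fold enrichment of 9.93 in the HFFc6 list and of 19.39 in the other (−log10 q of 882.3 and 798.1). Its summits lay 1007 and 928 bp inside the body.

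By the strongest HFFc6 ATAC region at the start or ends of each gene, COL3A1 had the lowest fold enrichment of the members. That region, at its low-coordinate end, had a fold enrichment of 2.85, at percentile 15.0 of its list, and the H1 region there had a −log10 q of 3.1. No CTCF region of either list lay within 1 kb of its ends. A stronger pair lay further in: an HFFc6 region with its summit 1506 bp inside the body (fold enrichment 9.71) and an H1 region at 1489 bp (7.61).

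COL6A1 had fold enrichments of 7.26 in HFFc6 and of 7.21 and 5.73 in H1 at its low-coordinate end. The body of COL5A2 in the table spans 409.214 kb, including predicted transcripts, and its high-coordinate end coincides with the end of WDR75, so the region counted there (fold enrichment 14.93 in HFFc6 and 12.22 in H1) cannot be ascribed to COL5A2. A region of similar strength in all 4 lists lay inside the body at chr2:189178744-189180483. There the HFFc6 ATAC region had a fold enrichment of 14.73 and the H1 region 10.26. No curated start of COL5A2 was at hand, so whether this region lies at it was not checked. Since the body includes predicted transcripts, regions placed inside it here and below may lie outside the curated gene.

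CTCF regions lay at most starts of the members, as at most starts of all genes, and COL3A1 lacked one in both lists. An HFFc6 CTCF region lay within 1 kb at 7 of 8 genes, all but COL3A1, where the share over all genes was 68.0%. A hESC-named CTCF region lay there at 6 of 8, all but COL3A1 and COL6A3, against 68.8% of all genes. COL5A2 counts in both lists only through the end that coincides with that of WDR75.

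Around the genes, fibroblast-only open regions outnumbered stem-cell-only ones at every member. More HFFc6-only than H1-only ATAC regions were counted in the window at 8 of 8 genes, where 48.4% of all protein-coding genes had such an excess. With regions of a −log10 q of at least 10 alone, the count was again 8 of 8, and the share of all genes rose to 68.6%. The reverse was seen at 0 of 8 genes, against 41.1% of all genes. The excess ranged from 2 regions at COL6A1 to 22 at COL5A1. As each window is a fixed distance around a body, long genes collect more regions, so counts are also given per 100 kb of window.

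**Figure D1:**
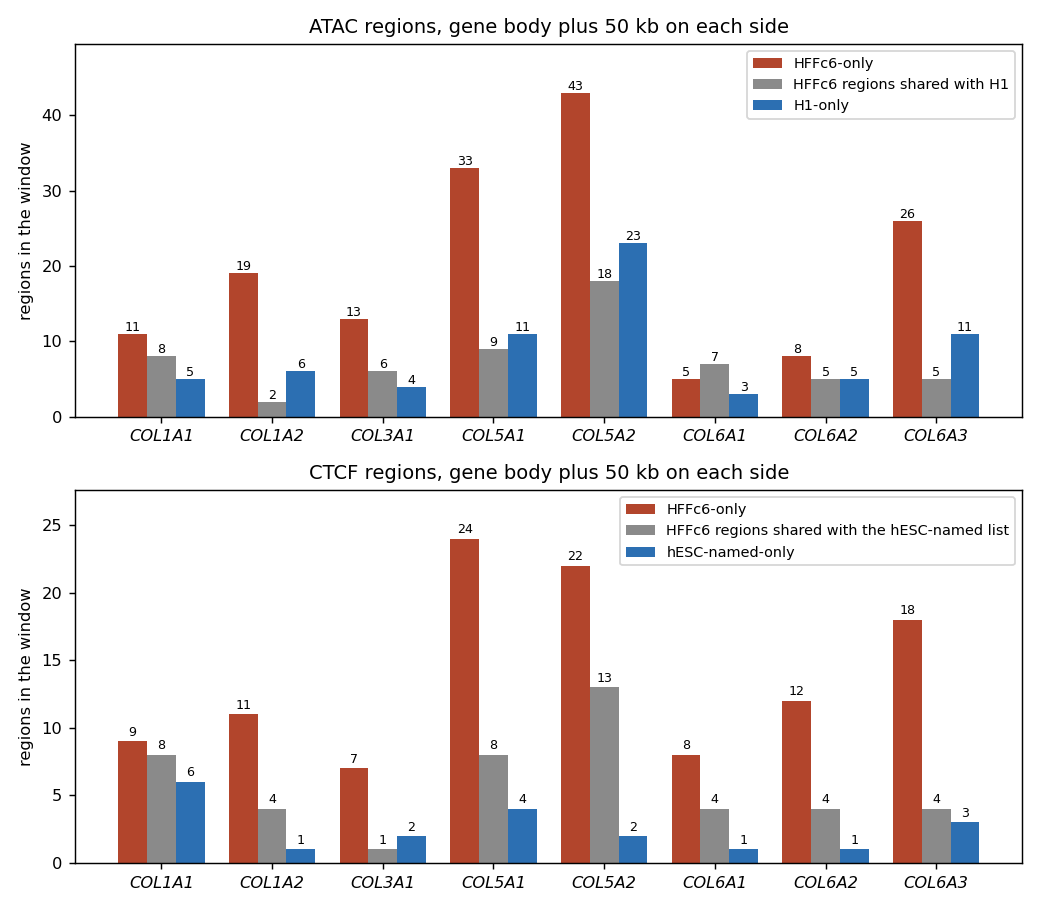
Number of ATAC regions (upper panel) and CTCF regions (lower panel) in the window of each gene, with bars for HFFc6-only regions, HFFc6 regions shared with the other list, and regions only in the other list. The HFFc6-only bar exceeds the H1-only or hESC-named-only bar at all 8 genes, and the closest ATAC pair is 5 against 3 at COL6A1.

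COL1A2 had 19 HFFc6-only, 2 shared and 6 H1-only ATAC regions. Per 100 kb its excess of 9.54 regions stood at percentile 99.5 of all genes, the highest of the members. COL6A3 had 26 HFFc6-only, 5 shared and 11 H1-only regions, an excess of 7.89 per 100 kb at percentile 98.7. These 2 genes also have no other protein-coding gene in their windows.

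COL5A1 had 33 HFFc6-only, 9 shared and 11 H1-only regions, an excess of 7.26 per 100 kb. COL3A1 had 13, 6 and 4 (6.50 per 100 kb), and COL1A1 had 11, 8 and 5 (5.11 per 100 kb). COL5A2 had 43, 18 and 23 (3.93 per 100 kb). These 4 genes stood between percentiles 87.4 and 98.1.

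COL6A1 and COL6A2 had the smallest excesses. COL6A1 had 5 HFFc6-only, 7 shared and 3 H1-only regions, and COL6A2 had 8, 5 and 5, with excesses of 1.62 and 2.23 per 100 kb at percentiles 66.0 and 73.3. COL6A1 was the single member with more shared than HFFc6-only regions. The chain partner COL6A3 is on another chromosome. Within type VI the excess per 100 kb ran from 1.62 to 7.89. With a −log10 q of at least 10, COL6A1 left this low place, with an excess of 9 regions (7.30 per 100 kb) against 8 at COL1A1 (6.81). COL6A2, with 8 regions (5.937 per 100 kb), stayed the lowest of the members per 100 kb, barely below COL5A1 with 18 (5.940). COL5A2 moved in that setting as well, to 39 regions (7.66 per 100 kb). With the 50% overlap rule, equal numbers, 500 bp around summits, the body alone or 100 kb flanks, COL6A1 and COL6A2 both remained lowest per 100 kb.

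Some regions were counted at 2 genes. The windows of COL3A1 and COL5A2, whose bodies are 19.151 kb apart, share 80.849 kb with 14 HFFc6 ATAC and 4 H1 ATAC regions. Those of COL6A1 and COL6A2 share 6.937 kb with 2 regions of each ATAC list. With each such region given to the nearest gene, COL3A1 kept an excess of 5 regions in place of 9 and COL5A2 14 in place of 20, an alternative chosen after seeing the data.

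**Figure D2:**
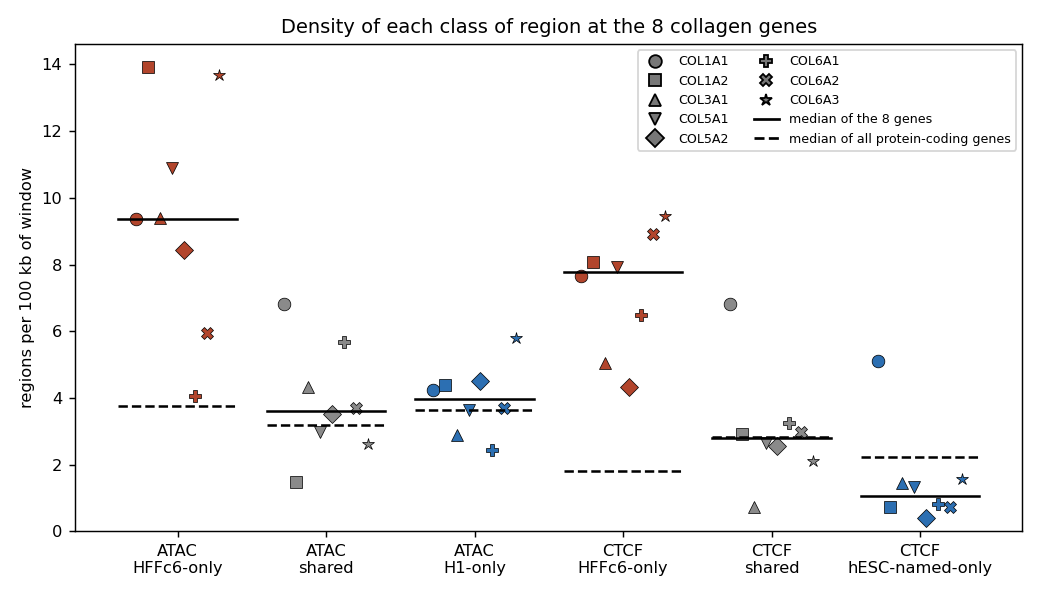
Regions per 100 kb of window for each of 6 classes, 1 symbol per gene, with the median of the 8 genes (solid line) and of all protein-coding genes (dashed line). The medians part in the HFFc6-only classes, 9.38 against 3.77 for ATAC and 7.79 against 1.81 for CTCF, and lie close together in the shared classes.

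The density of HFFc6-only ATAC regions separated the members from a typical gene more than that of other ATAC classes did. Its median was 9.38 per 100 kb over the members (4.06 to 13.9) and 3.77 over all genes. H1-only regions had medians of 3.98 and 3.65, and shared HFFc6 regions 3.62 and 3.18. Between types, HFFc6-only densities were 9.36 and 13.9 for the type I genes, 9.39 for COL3A1, 10.9 and 8.44 for the type V genes, and 4.06, 5.94 and 13.7 for COL6A1, COL6A2 and COL6A3.

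The shares of regions in common are built from the same classes of region, so they restate the excess and do not add to it. Of the HFFc6 ATAC regions in the windows, 55 of 202 (27.2%, Wilson 95% interval 21.6 to 33.7) were found in H1, where the share of the whole list was 34.7%. Of the H1 regions, 62 of 129 (48.1%, 39.6 to 56.6) were found in HFFc6, where the share of the whole list was 31.8%. With a −log10 q of at least 10 the first share was 17.0% (27.9% of the whole list) and the second 59.6% (42.7%). The intervals cover counting error only and hold no variation between libraries. By gene, the share of HFFc6 regions found in H1 ran from 9.52% at COL1A2 (2 of 21) to 58.3% at COL6A1 (7 of 12).

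Set against the length of the body, the excess was denser there than in the flanks at COL1A2 and COL3A1. The COL1A2 body takes up 26.7% of its window and held 7 of the 13 regions of excess. For COL3A1 these values were 27.7% and 6 of 9. At COL5A1 (67.0% of the window, 16 of 22) and COL5A2 (80.4%, 16 of 20) the part in the body was close to the body's own share of the window. The COL5A2 body includes predicted transcripts, so its counts here may exceed those of the curated gene. At COL6A3 the body, 47.4% of the window, held 5 of 15. At COL1A1 (14.9%, 2 of 6), COL6A1 (18.9%, 0 of 2) and COL6A2 (25.8%, 1 of 3) the counts are too few to place. Over the 8 windows, 86 of 147 HFFc6-only ATAC regions (58.5%) overlapped a member's body, near the share of shared HFFc6 regions, 30 of 55 (54.5%). The bodies of COL1A1, COL1A2, COL3A1 and COL6A1 held 0 H1-only regions, against 2, 7, 6 and 0 HFFc6-only regions. Those of COL5A1, COL5A2, COL6A2 and COL6A3 held 6, 20, 1 and 6 H1-only regions, against 22, 36, 2 and 11. The bodies with 0 are short (17.531 to 38.374 kb), and over all genes the median was 3.65 H1-only regions per 100 kb of window. How many bodies of all genes hold 0 was not counted, so whether this sets them apart is not known. Within 1 kb of an end of another gene lay 12 of 147 HFFc6-only regions (8.16%), against 10 of the 55 shared regions (18.2%). The same shares over the whole list were not counted.

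**Figure D3:**
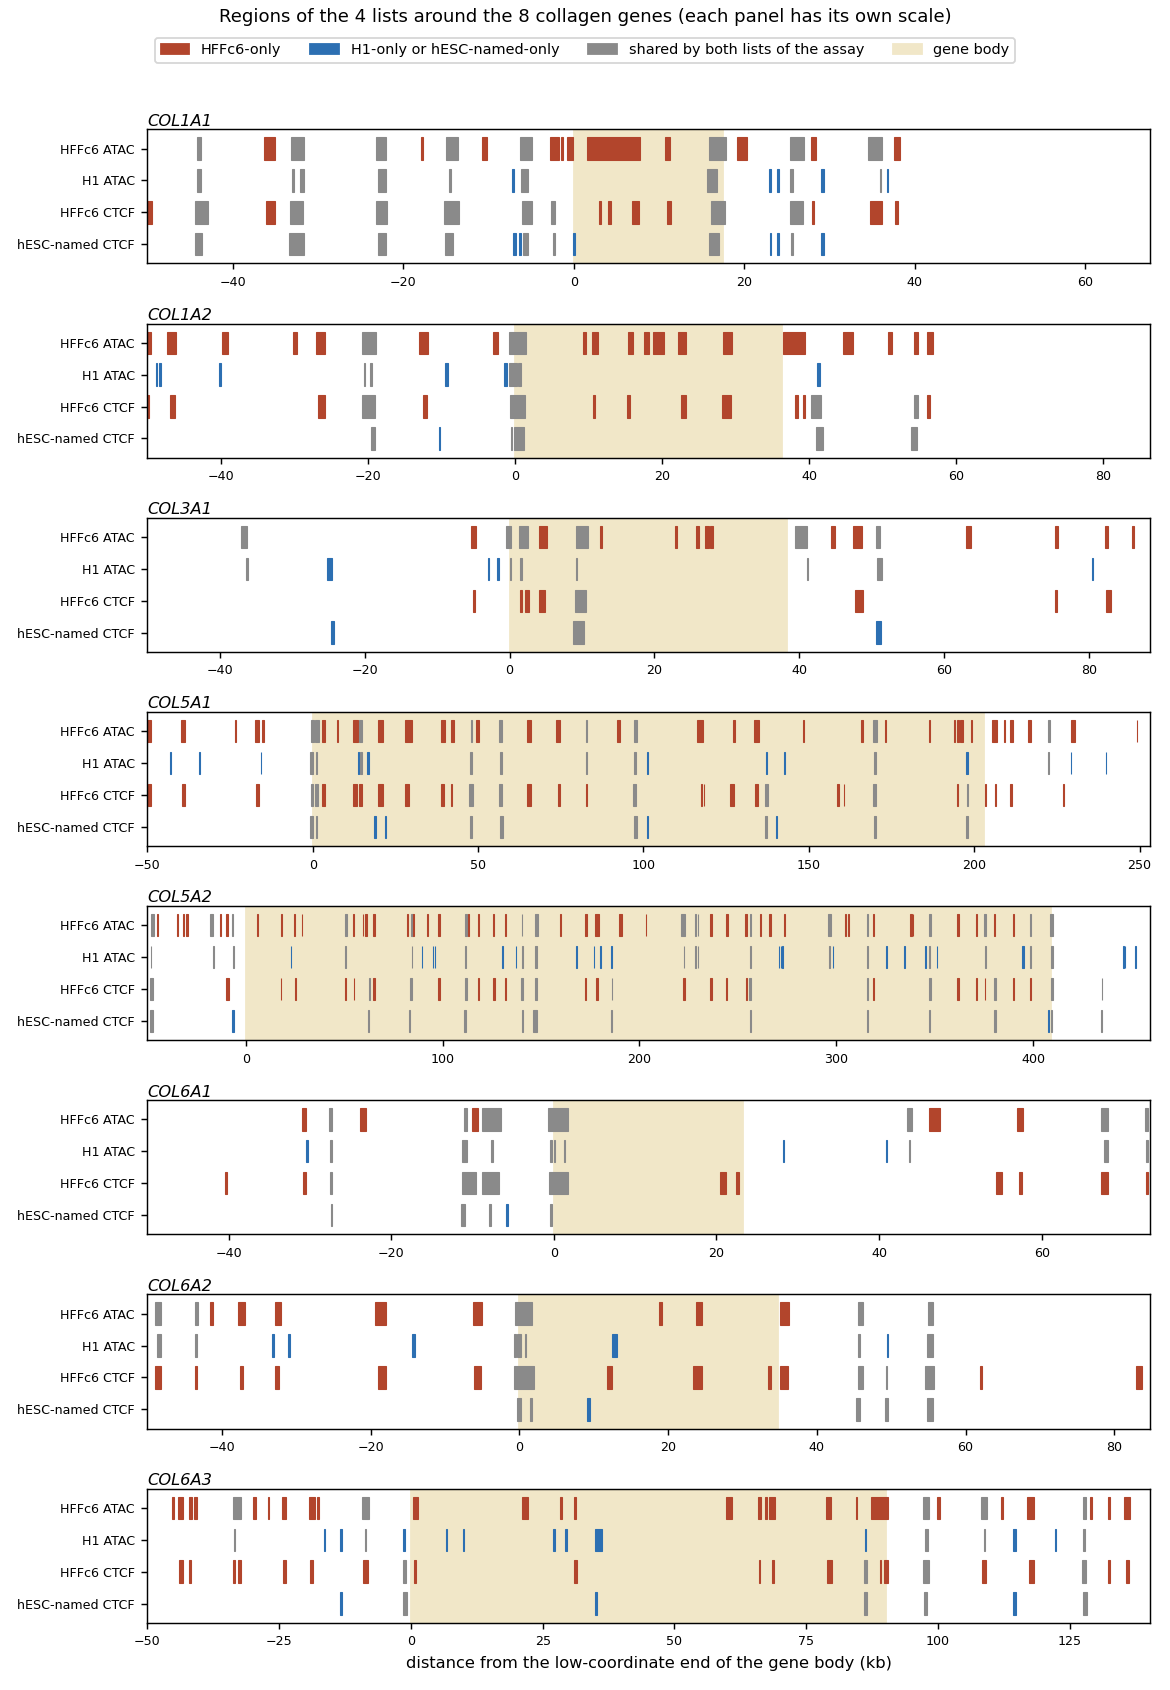
Regions of the 4 lists along the window of each gene, with the distance from the low-coordinate end of the gene body in kb on the x axis and 1 row per list; widths are to scale and each panel has its own scale. The COL1A1 body holds 2 HFFc6-only ATAC regions, of 6150 and 586 bp, and the COL1A2 body holds 7 HFFc6-only regions with no H1-only region.

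HFFc6-only regions often came in runs. A run of at least 3 HFFc6-only ATAC regions with gaps of at most 5 kb was found in the windows of 7 of 8 genes, where 22.4% of all genes had one, and COL6A1 had none. Runs of H1-only regions were found at 2 of 8 genes, COL1A1 and COL5A2, against 19.3% of all genes. The members held 14 distinct HFFc6-only runs. A window with more HFFc6-only regions has more chances of a run, and the members held a median of 16 against 5 over all genes. The share of all genes was not matched for this, so the runs are not separate from the excess given above.

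The longest run, 7 regions over 20.255 kb, lay within the COL1A2 body (chr7:94404202-94424456). Its regions had fold enrichments from 1.81 to 10.21, and 4 of the 7 overlapped an HFFc6 CTCF region. A second COL1A2 run of 4 regions covered 12.263 kb of the high-coordinate flank. COL6A3 had 5 runs, from 3.094 to 12.468 kb long, 1 of which ended over its start.

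COL3A1 had 1 run, of 4 regions over 5.308 kb in its body, which also lies in the flank of COL5A2 and held no HFFc6 CTCF region. COL5A1 had 3 runs, COL5A2 a further one of 4 regions over 10.72 kb in its body, and COL6A2 one of 3 regions over 9.518 kb in its low-coordinate flank.

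COL1A1 carried the widest region of the whole HFFc6 ATAC list. It spanned 6150 bp of the gene body (chr17:50185711-50191860), was HFFc6-only, and no other of the 155746 regions was as wide. Its fold enrichment was low, 2.36, at percentile 7.23 of the list, with a −log10 q of 47.6. The run of 5 HFFc6-only regions around it covered 14.038 kb, with fold enrichments from 1.28 to 2.36. Inside the bounds of the 6150 bp region lay 3 weak HFFc6 CTCF regions (fold enrichments 1.76, 1.51 and 2.18), and 2 more of similar strength (2.19 and 2.20) lay near the edges of the run.

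Wide regions were found at other members as well. The widest HFFc6 ATAC region was 2987 bp at COL1A2, just beyond its high-coordinate end, and 3195 bp at COL6A3, over its start. Over the 8 genes the widest region per window had a median of 2356.5 bp (1684 to 6150), against 1713 bp over the 19214 genes with an HFFc6 region, and that of COL3A1, 1684 bp, was below the latter. A window with more regions has more chances of a wide one, and the members held a median of 20 HFFc6 ATAC regions against 10 over all genes. The median width of the HFFc6 ATAC regions in the windows was 778.5 bp, against 707 bp in the whole list. The HFFc6 list was called from more libraries than the H1 list and its regions are wider, against a median of 301 bp in H1, and the part of depth in these widths was not tested. HFFc6 ATAC regions covered between 8.87% (COL6A2) and 20.7% (COL1A1) of the windows, and H1 regions between 2.14% (COL3A1) and 5.09% (COL1A1).

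**Figure D4:**
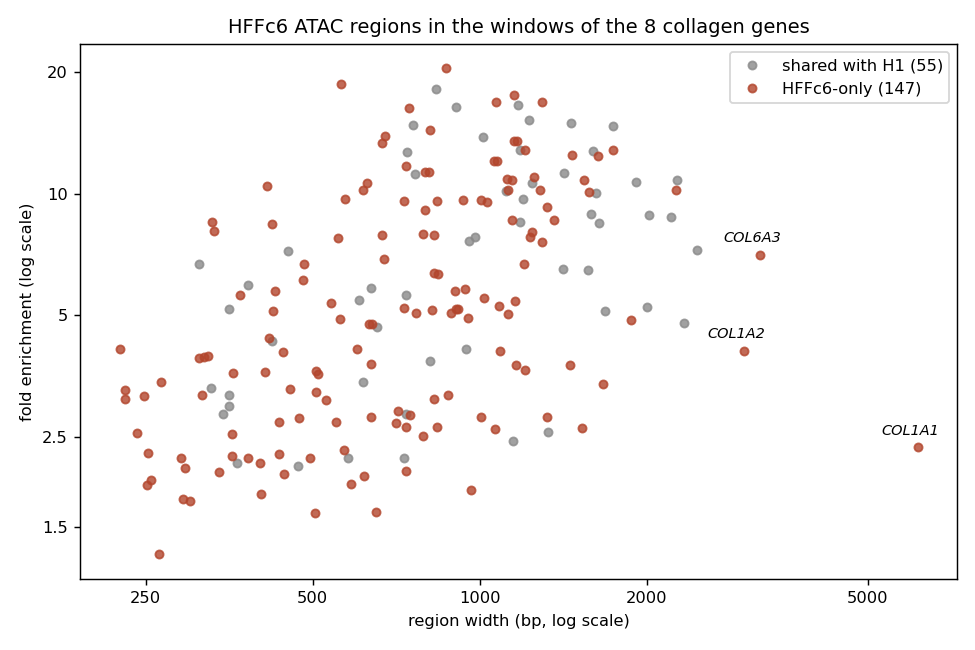
Width in bp against fold enrichment, both on log axes, for the 202 HFFc6 ATAC regions of the windows, 147 of them HFFc6-only and 55 shared with H1. The 3 widest, labelled by gene, are all HFFc6-only, and the widest, at COL1A1, has a fold enrichment of 2.36.

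The strongest HFFc6-only ATAC region of the windows lay in the COL5A2 body as tabulated with predicted transcripts (chr2:189393272-189394142). It had a fold enrichment of 20.45, at percentile 99.7 of its list, and may lie outside the curated gene. At COL5A1 the strongest (17.58) lay in the low-coordinate flank, with its summit 39050 bp before the start. At COL6A2 it lay in the body, 24253 bp from the start (14.38). All 3 overlapped an HFFc6 CTCF region and neither H1 ATAC nor hESC-named CTCF.

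At COL1A2 the strongest HFFc6-only region reached 13.50, with its summit 46542 bp before the low-coordinate end. The values were 12.08 at COL6A3, 11.34 at COL6A1, 10.48 at COL3A1 and 5.04 at COL1A1, where no HFFc6-only region rose above percentile 41.3. Over all windows the median fold enrichment was 5.04 for HFFc6-only and 7.23 for shared HFFc6 regions, near the medians of the whole list (5.26 and 7.88).

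H1-only regions were fewer and some of them were strong. The strongest, with a fold enrichment of 19.32, lay 4985 bp beyond the high-coordinate end of COL1A2, where both CTCF lists had a region as well. COL5A2 had one of 19.04 in its tabulated body and COL6A3 one of 16.61, 1242 bp below its low-coordinate end. Both lay with regions of both CTCF lists. At COL1A1, COL3A1, COL6A1 and COL6A2 no H1-only region exceeded 7.03. A −log10 q of 10 or more was reached by 29.9% of the H1-only and 86.4% of the HFFc6-only regions of the windows, where the H1-only and HFFc6-only regions of the whole lists gave 38.9% and 81.9%.

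CTCF regions showed a lean of the same sign. More HFFc6-only than hESC-named-only CTCF regions were counted at 8 of 8 genes, where 36.8% of all genes had such an excess. COL5A1 had 24 against 4, COL5A2 22 against 2, COL6A3 18 against 3, COL6A2 12 against 1 and COL1A2 11 against 1. COL6A1 had 8 against 1, COL3A1 7 against 2, and COL1A1 9 against 6, the smallest excess.

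The median density of HFFc6-only CTCF regions was 7.79 per 100 kb over the members and 1.81 over all genes. Shared regions had nearly equal medians, 2.79 and 2.83, and hESC-named-only regions were sparser at the members, at 1.07 against 2.24. Of the HFFc6 CTCF regions in the windows, 45 of 151 (29.8%, 23.1 to 37.5) were found in the hESC-named list, where the share of the whole list was 50.9%. Of the hESC-named regions, 48 of 67 (71.6%, 59.9 to 81.0) were found in HFFc6, where the share of the whole list was 41.3%.

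HFFc6-only CTCF regions at the members were weak, and their overlap with open chromatin was near that of such regions anywhere. Their median fold enrichment was 3.73, at percentile 20.6 of the list, where HFFc6-only regions of the whole list had a median of 4.69, at percentile 34.0. Of these 106 regions, 92 (86.8%, 79.0 to 92.0) overlapped an HFFc6 ATAC region, where the share of HFFc6-only CTCF regions of the whole list was 87.1%. An H1 ATAC region was overlapped by 15 (14.2%, 8.77 to 22.04), against 18.2% of the whole list. Of all 151 HFFc6 CTCF regions in the windows, 128 (84.8%) lay in HFFc6 ATAC, against 85.0% of the list, and with lists of equal numbers these were 56.3% and 68.9%. Of the HFFc6-only ATAC regions in the windows, 77 of 147 (52.4%, 44.4 to 60.3) overlapped HFFc6 CTCF, where the share of the whole list was 30.1%. Cut&Tag uses Tn5 too, and with no antibody-free library at hand the part that insertion into open chromatin plays in these regions was not tested.

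The ATAC regions with CTCF were the broader and stronger ones. Among HFFc6-only ATAC regions of the windows, the 77 with HFFc6 CTCF had a median width of 940 bp and a median fold enrichment of 7.80, and the 70 without had 449.5 bp and 3.78. The whole list gave 892 bp and 9.76 with CTCF, and 527 bp and 4.18 without.

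The nearest CTCF regions found in both CTCF lists lay at different distances from the genes, and some were weak. Outside its body, COL6A3 had one 0.932 kb below its low-coordinate end (fold enrichment 2.92) and one 7.062 kb beyond the other end (11.46). COL1A1 had them at 2.162 kb (2.19, only percentile 1.02 of the HFFc6 list) and 7.832 kb (7.12). COL1A2 had them at 18.970 kb (7.32) and 3.965 kb (8.31). COL3A1 had the nearest at 189.836 and 81.662 kb, both beyond its window, and 1 shared CTCF region inside its body. COL5A1 had 8 inside its body, and COL5A2 had 11 inside its body as tabulated with predicted transcripts.

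The strongest of these next to a gene was 10.751 kb beyond the high-coordinate end of COL6A2 (fold enrichment 14.18, percentile 96.1 of the HFFc6 list). COL6A1 and COL6A2 share an HFFc6-only CTCF region (10.85) between them that overlaps ATAC regions of both lines. The strongest shared region at COL5A1 in the hESC-named list, 47856 bp inside the body, had a fold enrichment of 28.89, at percentile 99.4.

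Other collagen genes and the genes that make collagen mature were counted the same way, from a list of 46 genes, all of which were measured. More HFFc6-only ATAC regions were found at 31, more H1-only at 14, and equal numbers at 1, with a median difference of 3 regions against 11 for the members and 0 for all genes. The 6 other fibrillar collagens divided evenly, 3 and 3, from COL27A1 (22 HFFc6-only against 10 H1-only) to COL11A2 (4 against 12). COL6A5 and COL6A6, the other type VI genes, had 0 against 11 and 8 against 6, and neither had an HFFc6 ATAC region at its start, which H1 had at both.

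The basement membrane genes COL4A2 and COL4A1 had the largest excesses of the list, 32 against 13 and 30 against 16, and 4 of the 6 genes of that group leaned to HFFc6. COL4A1 and COL4A2 are both on chromosome 13, COL4A3 and COL4A4 on chromosome 2, and COL4A5 and COL4A6 on chromosome X. Overlap of windows was worked out for the members only, so regions may be counted at 2 genes of such a pair. Their counts cannot be read as independent, and COL6A5 and COL6A6, both on chromosome 3, share this limit. The lysyl oxidase gene LOXL2, whose product crosslinks collagen, had 17 against 5, the same difference as COL27A1. Of 11 genes for processing and crosslinking, 9 leaned to HFFc6 and 2 to H1, and of 13 for modification and folding, 9 and 4 did. Fibril-associated and other collagens leaned to HFFc6 at 5 of 8 genes and to H1 at 2. After COL6A5 and COL11A2, the largest differences towards H1 were at COL24A1 (16 against 23) and COL14A1 (9 against 16).

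**Figure D5:**
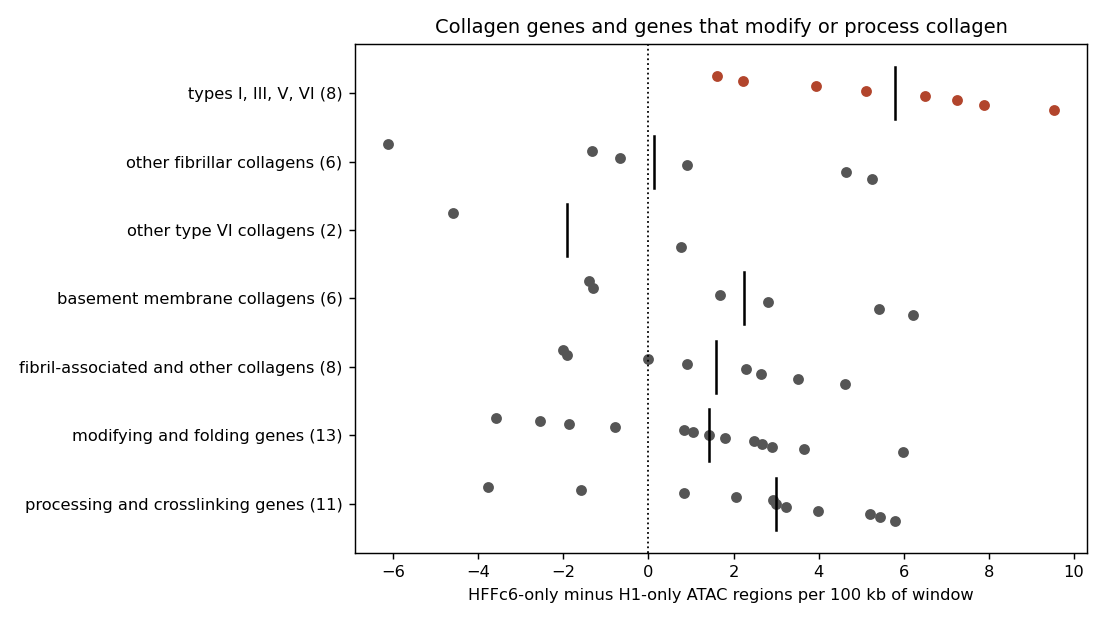
HFFc6-only minus H1-only ATAC regions per 100 kb of window, 1 point per gene, for the 8 collagen genes of types I, III, V and VI (top row) and 46 other collagen, modifying and processing genes by group; vertical bars are group medians and the dotted line marks equal numbers. The 8 genes lie between 1.62 and 9.54, and every other group holds genes on both sides of 0.

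By the densities of the 6 classes, scaled by their spread over all genes, the 5 genes outside the members closest to the members' median were RARRES1, IRAG1, RHOBTB3, SLC1A2 and TMEM82, at Euclidean distances of 0.626 to 0.786. RARRES1 had 13 HFFc6-only and 5 H1-only ATAC regions, and IRAG1 had 21 and 8. COL5A1, at 0.671, was the member closest to that median, and COL1A1, at 3.12, was the farthest.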

How the data were processed

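ATAC regions of HFFc6 and H1 and CTCF regions came from 4 peak lists. Build hg38 and the tools BWA, MACS2 and bedtools are named in the submitters' processing notes. Versions, filters, any control, and any Tn5 offset were not given in the sources used here. Deposited fold enrichment is a ratio of signal to background from the peak caller, and the −log10 q-value and the summit position are also the authors' values, used only to describe, rank or filter regions within a list. Every list stopped at a q of 0.05. Regions outside chromosomes 1 to 22 and X were left out (207 to 534 per list).

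Genes and promoters came from RefSeq tables of GRCh38.p14, the build of the lists, without strand for genes and without exons. Overlaps, counts and Wilson intervals were computed in Python 3.11.15 (pandas 2.3.3, scipy 1.17.1), and the overlap step was tested on simulated data with 0 disagreements. All 8 genes are named, with their start regions, the strongest region of each class, runs, the 5 most similar genes, and the genes with the 3 largest differences each way, ties included, in the list of 46. COL6A6 was named after its values were seen. Members and lists were chosen with earlier results of these data known, so counts are set beside all genes and no test was made. Libraries for H3K4me3, H3K27ac and SMC1 (10 in all) were not analysed here. Alternatives were the overlap rule, a stricter q, equal list lengths, 500 bp around summits, and other windows and start distances.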

Additional observations from a re-analysis of the deposited data

How the results depend on the processing

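All 8 genes kept more HFFc6-only than H1-only ATAC regions, and more HFFc6-only than hESC-named-only CTCF regions, under each alternative run, except that with the gene body alone 7 did for ATAC, since COL6A1 had 0 of either class there. Over the same settings the share of all genes with an excess ran from 33.1% to 68.6% for ATAC and from 25.2% to 51% for CTCF. The difference stayed above 0 in all 7 alternatives for the other genes, from 7 to 19 at COL1A2 and from 1 to 8 at COL6A2, and at COL6A1 it ran from 0 to 9. The cause of the changes that follow was not tested. With a −log10 q of at least 10, the share of HFFc6 ATAC regions found in H1 was 17.0% in place of 27.2%, that of H1 regions found in HFFc6 59.6% in place of 48.1%, and that of HFFc6 CTCF regions in HFFc6 ATAC 93.2% in place of 84.8%. With lists of equal numbers, which leaves fewer ATAC regions, the last was 56.3%, and with 500 bp around summits it was 77.5% and the share of H1 in HFFc6 38.0%. An H1 ATAC region lay at 6 starts with the stricter q or equal numbers, without COL3A1, and at 6 with 500 bp around summits or 500 bp to the start, without COL1A1. COL6A3 lacked one in each setting tried. The CTCF count, the nearest-gene assignment and the use of either end for all genes were chosen after seeing the data. No paired analysis was possible because each list is 1 call and no test was made. Depth is unknown, and the lists differ in length and in number of libraries.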
